A study of Rattus norvegicus with 78 samples.

Results

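The genes described here make and use glutathione and other antioxidants: the glutathione transferases, the glutathione peroxidases, the enzymes of glutathione synthesis and recycling, catalase, the superoxide dismutases, heme oxygenase and quinone reductase, and the thioredoxins and peroxiredoxins. They were chosen by symbol, each entered by its brightest probe set over all arrays, and only probe sets annotated with 1 symbol were used. This gave 44 of the 14506 genes on the array: 19 glutathione transferases (3 alpha, 8 mu, 1 pi, 2 theta, 2 omega, 1 kappa and 2 microsomal), 8 glutathione peroxidases, 4 genes of glutathione synthesis and recycling, 3 of catalase and superoxide dismutases, Hmox1 and Nqo1, 2 of the thioredoxin system and 6 peroxiredoxins. Gsta2 and Gsta5 were found only on probe sets with several symbols, no zeta class transferase matched, and Txnrd3 was not found, so these were not analysed here.

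RNA from cauda epididymal sperm of Fischer 344 rats was hybridised to 78 arrays, 1 per sample. Rats were given corn oil (20 arrays) or the fumigant 1,2-dibromo-3-chloropropane (DBCP), a toxicant of male germ cells, at 5 mg/kg/day (20 arrays), for 3 months. The other arrays came from rats that had a recovery period after corn oil (19 arrays) or after the same dose of DBCP (19 arrays). No source used here gives the length of the recovery. The arrays are labelled as biological replicates, without saying whether samples were pooled, and the later groups are also older rats, so that recovery and age cannot be told apart. The labels used here name no processing batch, and one that differed between the times could not be told apart from recovery either. The labels name the tissue as sperm, whereas the title of the series names testis.

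Glutathione is a small peptide that the transferases attach to electrophiles, which makes most of them easier to excrete. Some halogenated alkanes, DBCP among them, are instead turned into reactive products by this step. Peroxidases, peroxiredoxins and catalase remove peroxides, superoxide dismutases supply part of these peroxides from superoxide, and sperm, whose membranes are rich in unsaturated lipids, rely on such enzymes from the germ cell and from the epididymal fluid. Many of these genes are induced through the transcription factor Nrf2 at antioxidant response elements in their promoters.

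All levels are log2 values of a probe set, and levels of different probe sets are not comparable. The array medians lay between 6.55 and 6.75. The mean level of 23 sperm tail genes was 7.55 to 8.46 on corn oil arrays, and that of 37 leukocyte genes was 7.44 to 8.02. The values hold no background signal, so whether these markers were detected could not be judged. Of 78 arrays, 6 had a limma array weight under 0.5: DBCP replicates 2, 13 and 20, DBCP recovery replicates 7 and 15, and corn oil recovery replicate 11. These arrays held the highest value of many members, as given below. Without them, 0 members were called in either comparison of DBCP with corn oil, 21 over time in corn oil rats (17 higher, 4 lower) and 4 over time in DBCP rats, beside the counts of 0, 20 and 4 given below. Of all probe sets 0%, 26.2% and 11.7% were then called. No member had groups that did not overlap in any of the 4 comparisons between groups (0 of 44 in each), against 0.00685% of all probe sets over time in corn oil rats and 0% in the other 3. Over all arrays, 35 of the 44 lay above the median of all probe set values, and 9 lay below it: Prdx4, Gpx6, Nqo1, Gstm3, Gsta3, Hmox1, Txnrd1, Gstk1 and Mgst2.

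The first comparison asked whether 3 months of DBCP changed these genes by the end of exposure. The glutathione transferases of the mu class, a large cytosolic class, lay higher in the DBCP group in 8 of 8 cases, but no member passed the test. Their differences ran from 0.005 to 0.35. Several of them are neighbouring close relatives on chromosome 2, whose probes may share targets, so these are not independent cases. The direction was not particular to this class. All alpha, pi, theta, omega and kappa transferases lay higher too, and the 2 microsomal ones lower. Of the 25 members outside the transferases, 16 lay higher and 9 lower. With limma's adjusted p threshold of 0.05, 0 of 44 were called, as were 0% of all probe sets. At an unadjusted p under 0.05 there were 13 members, all higher, against 6.91% of all probe sets that were higher and 4.68% that were lower at that level. The median difference of the members was 0.09, with 33 of 44 above 0, while that of all probe sets was -0.02, with 38% above 0. In replicates 1 to 10 alone the median of the members was 0.03, with 28 of 44 above 0. In replicates 11 to 20 alone, which hold the low-weight DBCP replicates 13 and 20, it was 0.165, with 35 of 44 above 0. In whole-sample RNA of this kind, fewer cells of a type and less RNA per cell cannot be told apart.

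Among the 5 members of smallest p, Gsto2, an omega class transferase that reduces dehydroascorbate, ranged from 7.00 to 7.76 with a median of 7.30 on corn oil arrays, and from 7.18 to 8.72 with a median of 7.40 on DBCP arrays. The groups overlapped, and DBCP replicates 2 and 13 lay far above the others. The difference was 0.24 ± 0.08 (SE; limma, adjusted p = 0.186), with 14 of 20 DBCP arrays above the corn oil mean. Gstm5, a mu class transferase described in mouse as part of the fibrous sheath of the flagellum, ranged from 10.29 to 11.98 (median 11.39) in corn oil rats and from 10.72 to 12.63 (median 11.73) in DBCP rats. Its difference was 0.35 ± 0.12 (limma, adjusted p = 0.190), with 17 of 20 arrays above the corn oil mean. Gpx4, the peroxidase that reduces lipid hydroperoxides and also forms part of the capsule around sperm mitochondria, ranged from 7.60 to 9.19 (median 8.46) and from 8.06 to 10.20 (median 8.65), a difference of 0.33 ± 0.13 (limma, adjusted p = 0.288). For each of these genes the DBCP range reached higher than the corn oil range, and DBCP replicate 13 was its highest array. Gstm7 and Gstm1, both of the mu class, lay 0.34 ± 0.13 and 0.27 ± 0.11 higher (limma, adjusted p = 0.247 and 0.292), with DBCP replicate 20 as the highest array of each.

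The other named members did not pass either. Gsta4, an alpha class transferase that conjugates products of lipid peroxidation, lay 0.33 ± 0.13 higher (limma, adjusted p = 0.294), and its second probe set 0.09 ± 0.07 (adjusted p = 0.595). Sod1, the cytosolic superoxide dismutase, lay 0.21 ± 0.09 higher, Prdx6, a peroxiredoxin that also acts on phospholipids, 0.28 ± 0.15, and Gstp1, the pi class transferase, 0.11 ± 0.06. Gclc, the catalytic subunit of the enzyme that limits glutathione synthesis, differed by 0.11 ± 0.07. Catalase (Cat) differed by -0.01 ± 0.07. Hmox1 and Nqo1, the inducible heme oxygenase and quinone reductase often read as signs of an Nrf2 response, differed by -0.04 ± 0.07 and -0.06 ± 0.06. Gpx5, the peroxidase that the epididymis secretes, differed by -0.16 ± 0.25. None of these passed (limma, adjusted p between 0.294 and 0.946).

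The cell markers moved with this comparison as well, though none of their genes was called. All 23 sperm tail genes lay above 0 (median 0.12), and 32 of 37 leukocyte genes lay below 0 (median -0.09). The sperm tail level ranged from 7.55 to 8.46 in corn oil rats and from 7.76 to 9.18 in DBCP rats, and the leukocyte level from 7.44 to 8.02 and from 7.32 to 7.86. With the leukocyte level of each array as a covariate in limma, 17 of 44 members were called, all higher in DBCP rats, against 6.71% of all probe sets called higher and 5.08% called lower. Among the 17 were 11 transferases, with Gstm1 at 0.35 (adjusted p = 0.0180), Gstm7 at 0.45 (0.0120), Gsta4 at 0.43 (0.0210) and Gstp1 at 0.17 (0.0360). They also held Gpx4 at 0.40 (0.0379), Sod1 at 0.27 (0.0265) and Prdx6 at 0.42 (0.0291). With the sperm tail level as the covariate 0 of 44 were called. The leukocyte level itself had means of 7.68 in corn oil rats and 7.59 in DBCP rats, and the sperm tail level 8.06 and 8.26. Such fits therefore cannot tell DBCP treatment from the level that served as covariate.

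**Figure D1:**
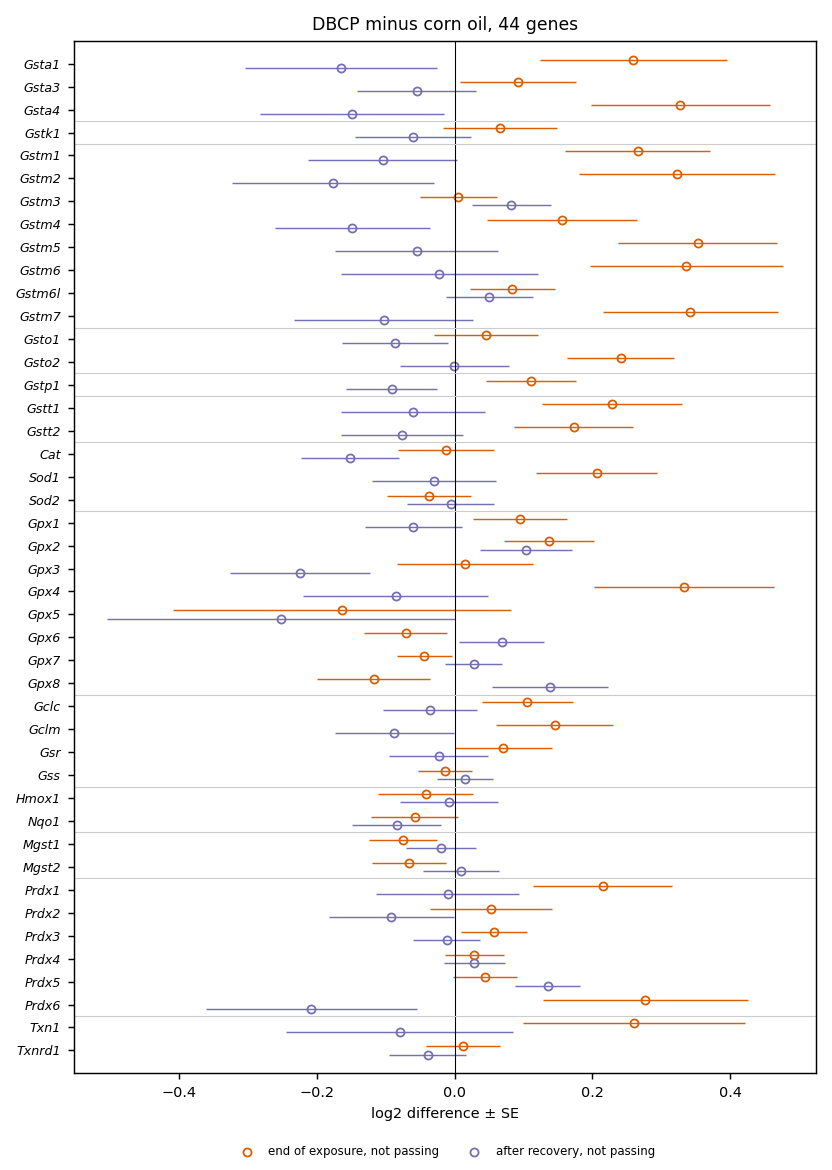
Log2 difference of DBCP minus corn oil (horizontal axis, with bars of 1 SE) for the 44 genes, by family, at the end of exposure (20 against 20 arrays) and after recovery (19 against 19). All symbols are open because 0 of 44 passed an adjusted p of 0.05 at either time; at the end of exposure 33 points lie right of 0, and after recovery 34 lie left of it.

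After recovery the groups that had received DBCP or corn oil were compared again. No member was called (0 of 44, against 0% of all probe sets), and the differences were small and mostly negative: the median was -0.06, with 34 of 44 below 0, against 0.01 for all probe sets, of which 57.9% lay above 0. At an unadjusted p under 0.05 there were 3 members, against 3.71% of all probe sets (2.38% higher, 1.33% lower). Of these, Prdx5, a peroxiredoxin of mitochondria and peroxisomes, lay 0.13 ± 0.05 higher, Gpx3, the secreted plasma peroxidase, -0.23 ± 0.10, and Cat -0.15 ± 0.07 (limma, adjusted p = 0.983 for each). The DBCP recovery range of Cat was 8.01 to 8.90 (median 8.49) and the corn oil recovery range 8.29 to 9.07 (median 8.64). These ranges overlapped over most of their length. Gpx8 and Gpx2 completed the 5 members of smallest p, at 0.14 ± 0.08 and 0.10 ± 0.07. Gpx4, Gstm1, Gsta4 and Gstp1 differed by -0.09 ± 0.13, -0.10 ± 0.11, -0.15 ± 0.13 and -0.09 ± 0.07, and Gclc, Sod1 and Prdx6 by -0.04 ± 0.07, -0.03 ± 0.09 and -0.21 ± 0.15. Hmox1, Nqo1 and Gpx5 differed by -0.01 ± 0.07, -0.08 ± 0.07 and -0.25 ± 0.25. Leukocyte genes lay lower in 28 of 37 cases in this comparison, with a median of -0.14.

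A change of the DBCP difference between both times was tested by an interaction term. It called 0 of 44 members (0% of all probe sets), with a median of -0.14 and 33 of 44 below 0, against a median of 0.03 for all probe sets, of which 61.5% lay above 0. At an unadjusted p under 0.05 there were 12 members, 11 of them below 0, against 10.9% of all probe sets (5.97% higher, 4.88% lower). The 5 of smallest p were Gsta4 (-0.48 ± 0.19), Gstm5 (-0.41 ± 0.17), Gstm1 (-0.37 ± 0.15), Gstm7 (-0.45 ± 0.18) and Gstm2 (-0.50 ± 0.20), each with an adjusted p of 0.454 in limma. Over the 44 members the median interaction was -0.05 in replicates 1 to 10 alone and -0.24 in replicates 11 to 20 alone. Because no interaction passed, the changes over time given next for corn oil rats and for DBCP rats are not shown to differ from each other, and these comparisons share arrays with those above.

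Between the end of exposure and the end of recovery, in corn oil rats, 20 of 44 members were called: 17 rose and 3 fell, against 11.5% of all probe sets called higher and 12.8% called lower (24.3% in all). Of the 19 transferases 11 were called higher and 0 lower, 8 were not called, and 5 of the 19 lay below 0, among them Gstm5 at -0.29. By class, 5 of 8 of the mu class, 2 of 3 alpha, both theta, the pi and the kappa gene rose, and none of the omega or microsomal genes was called. The median of the members was 0.15, with 32 of 44 above 0, against -0.04 for all probe sets, of which 38.4% lay above 0. Among the peroxidases the calls went the other way, with 1 of 8 higher and 3 of 8 lower.

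Gsta1, an alpha class transferase, had the largest rise of the members. It ranged from 8.90 to 10.40 (median 9.54) on corn oil arrays and from 9.43 to 10.74 (median 10.16) after recovery. The groups overlapped, although 18 of 19 recovery arrays lay above the earlier mean. The rise was 0.66 ± 0.14 (limma, adjusted p = 0.000269), or 1.59-fold. Gstm1 ranged from 11.05 to 12.47 (median 11.78) and then from 11.92 to 12.73 (median 12.34), with all 19 recovery arrays above the earlier mean. It rose by 0.53 ± 0.11 (limma, adjusted p = 0.000168), and its recovery arrays were less spread (SD 0.25, n = 19) than those at the end of exposure (SD 0.41, n = 20).

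The other mu class genes that rose were Gstm6 (0.63 ± 0.14), Gstm2 (0.61 ± 0.14), Gstm7 (0.59 ± 0.13) and Gstm4 (0.45 ± 0.11), with adjusted p in limma between 0.000567 and 0.00185. These genes lie next to each other on chromosome 2 and are close relatives, so that their probes may share targets. Gsta4 rose by 0.45 ± 0.13 (limma, adjusted p = 0.00880), whereas its second probe set gave 0.15 ± 0.07 and was not called (adjusted p = 0.106). Gstp1 rose by 0.19 ± 0.07 (adjusted p = 0.0282), a call that was lost when any of 3 of the 78 arrays was left out, and its differences were 0.07 in replicates 1 to 10 and 0.32 in replicates 11 to 20. Gstt1, Gstt2 and Gstk1 rose by 0.30 to 0.32. The call of Gstt1 was lost without corn oil recovery replicate 11 (adjusted p = 0.0515).

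**Figure D2:**
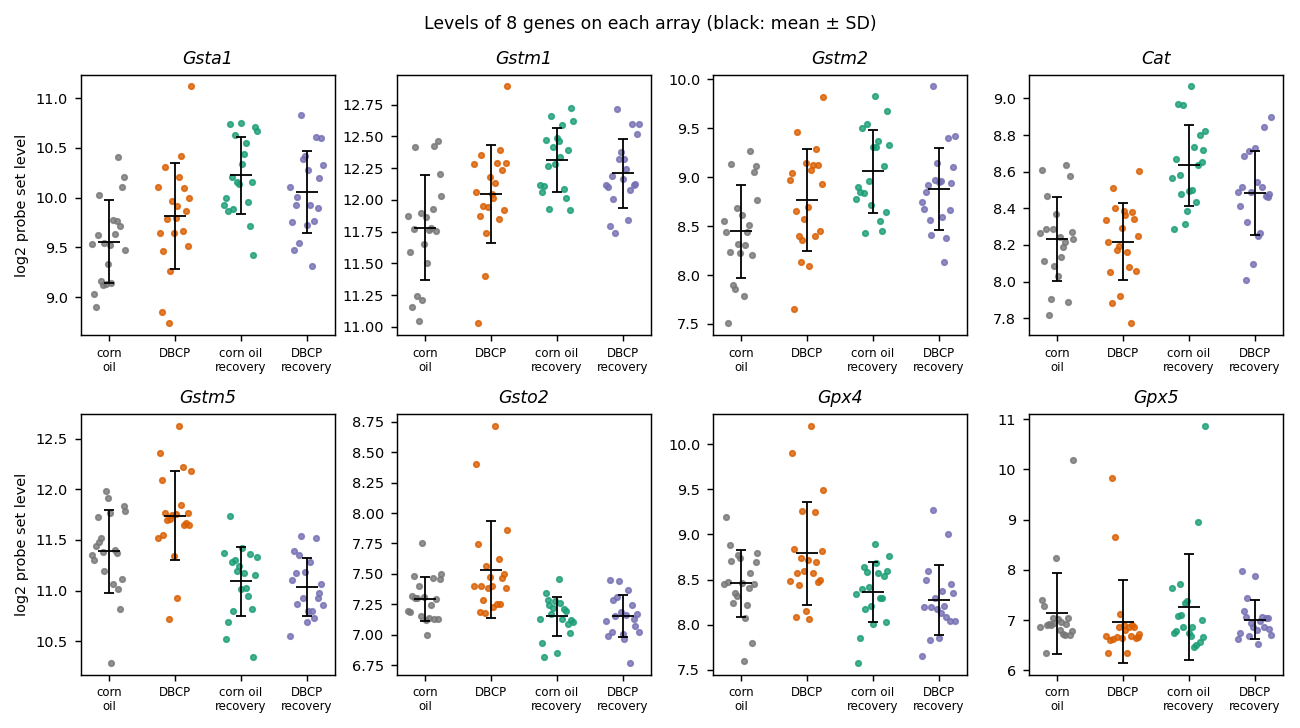
Log2 level of 8 genes on each of the 78 arrays (vertical axes, each with its own range), in the 4 groups of 20, 20, 19 and 19 arrays; black bars are the mean and SD. Gsta1, Gstm1, Gstm2 and Cat lie higher in the corn oil recovery group than in the corn oil group, Gstm5, Gsto2 and Gpx4 lie lower in the DBCP recovery group than in the DBCP group, and Gpx5 has a few arrays far above the rest.

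Of the enzymes that remove peroxides and superoxide, Cat, which breaks down hydrogen peroxide in peroxisomes, ranged from 7.82 to 8.64 (median 8.24) and then from 8.29 to 9.07 (median 8.64) in corn oil rats. All 19 recovery arrays lay above the earlier mean, and the ranges overlapped between 8.29 and 8.64. It rose by 0.40 ± 0.07, or 1.32-fold (limma, adjusted p = 2.5e-05), and was the member of smallest p. Sod1 rose by 0.39 ± 0.09 (adjusted p = 0.00101), from a range of 8.13 to 8.68 to one of 8.38 to 9.22. The mitochondrial dismutase Sod2 differed by 0.03 ± 0.06 and was not called. Prdx6 rose by 0.41 ± 0.15 (limma, adjusted p = 0.0382), but 13 of the 78 arrays each ended this call when left out. No other peroxiredoxin was called.

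Gpx3 rose by 0.37 ± 0.10 (limma, adjusted p = 0.00506), from a range of 7.41 to 8.54 to one of 7.82 to 9.06. The peroxidases that fell were Gpx8 (-0.26 ± 0.08, adjusted p = 0.0187) and Gpx7 (-0.15 ± 0.04, adjusted p = 0.00519), both of which act in the endoplasmic reticulum, and Gpx6 (-0.16 ± 0.06, adjusted p = 0.0486). The call of Gpx6 ended when any of 32 of the 78 arrays was left out, and its adjusted p without the 6 arrays of low weight was 0.0715. Gpx4 and Gpx5 were not called (-0.10 ± 0.13 and 0.13 ± 0.25). Gpx5 was the most variable of the 44, with an SD of up to 1.05 in a group. Corn oil replicate 20 stood at 10.20, DBCP replicate 4 at 9.82 and corn oil recovery replicate 20 at 10.87, against medians of 6.92, 6.71 and 6.88 in their groups.

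In the synthesis of glutathione, Gclc rose by 0.32 ± 0.07 (limma, adjusted p = 0.000394), from a range of 7.12 to 7.72 to one of 7.38 to 8.03. Its modifier subunit Gclm (0.17 ± 0.09), glutathione reductase Gsr (0.15 ± 0.07) and glutathione synthetase Gss (0.00 ± 0.04) were not called. Txn1, the cytosolic thioredoxin, rose by 0.56 ± 0.16 (limma, adjusted p = 0.00947), and its reductase Txnrd1 differed by 0.08 ± 0.05. Hmox1 and Nqo1 differed by -0.08 ± 0.07 and 0.07 ± 0.06 and were not called.

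**Figure D3:**
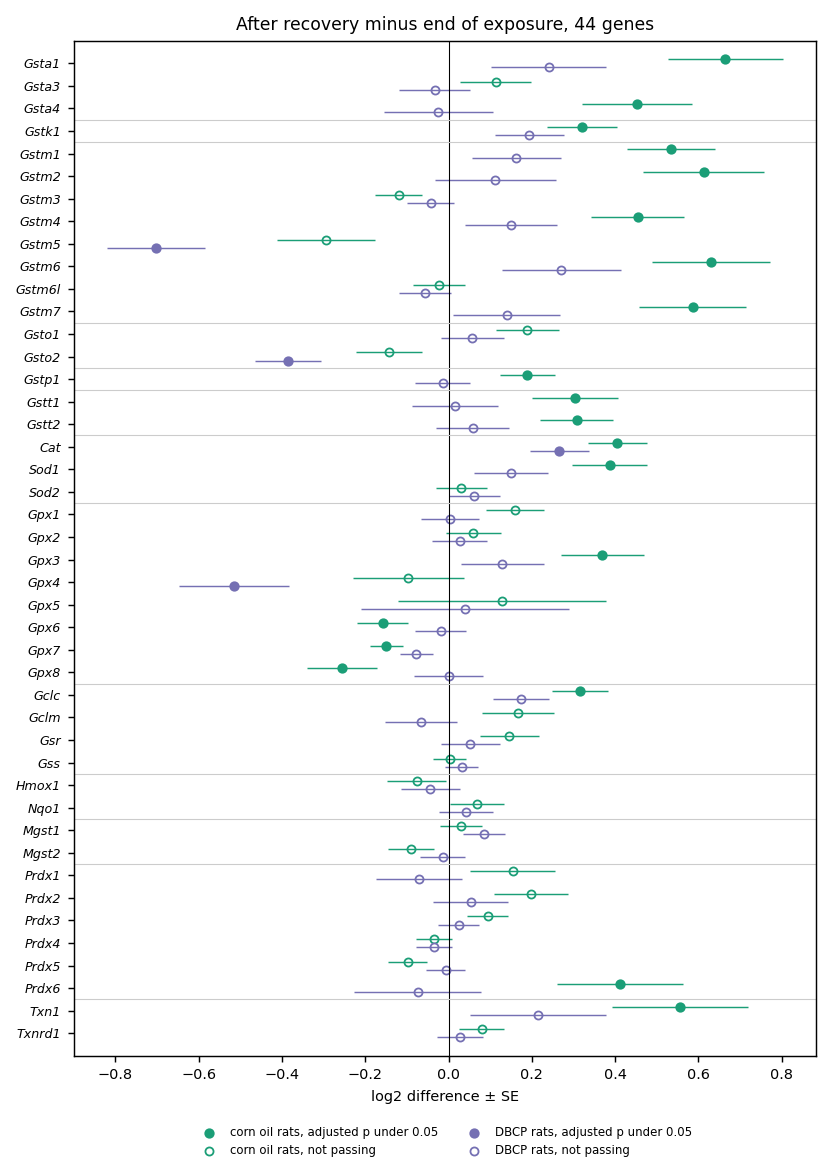
Log2 difference of recovery minus end of exposure (horizontal axis, with bars of 1 SE) for the 44 genes, by family, in corn oil rats (19 against 20 arrays) and in DBCP rats (19 against 20). Filled symbols passed a limma adjusted p of 0.05: 17 rose and 3 fell in corn oil rats, and Cat rose while Gstm5, Gsto2 and Gpx4 fell in DBCP rats.

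The 20 calls in corn oil rats were also counted in each of 2 sets of replicate numbers, and all 20 had the same direction in both. The labels do not tie these numbers to a batch. With replicates 1 to 10 alone 14 members were called (13 higher, 1 lower), and with replicates 11 to 20 alone only Cat (0.47, adjusted p = 0.0177). Of all probe sets 16.3% and 1.32% were called in these sets, against 24.3% in all arrays. The median difference of the 44 members was 0.15 in the former and 0.16 in the latter. Gsta1 differed by 0.89 and 0.44 in these sets, Gstm1 by 0.69 and 0.38, Txn1 by 0.83 and 0.27, and Sod1 by 0.42 and 0.35. Without corn oil recovery replicate 11 alone, 16 members were called. Without the 6 arrays of low weight Gsta1 differed by 0.66, Gstm1 by 0.53 and Cat by 0.38.

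Leukocyte genes rose over the same interval. In corn oil rats 20 of 37 leukocyte genes rose and 3 fell, Ptprc, the pan-leukocyte phosphatase, by 0.56, and the leukocyte level moved from a range of 7.44 to 8.02 (median 7.65) to one of 7.65 to 8.34 (median 7.96). With that level as a covariate in limma, only Gstm5 was called (-0.46, adjusted p = 0.0449), against 1.87% of all probe sets called higher and 0.979% lower, and none of the 20 genes passed. Gsta1 was then at 0.34, Gstm1 at 0.27, Cat at 0.14 and Prdx6 at -0.05. Since the leukocyte level itself differed between the groups, such a fit cannot tell the time of sampling from the leukocyte level. Of 21 epididymal principal cell genes 3 rose and 5 fell, and with their level as a covariate 20 members were called (24.9% of all probe sets), 19 of them among the 20 above. With the sperm tail level as the covariate 26 members were called, 22 higher and 4 lower, against 17.3% of all probe sets called higher and 30% lower, and all 20 above were among them.

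In rats that had received DBCP, only 4 of 44 members were called over the same interval, against 13.5% of all probe sets (7.28% higher, 6.19% lower). Cat rose, and Gstm5, Gsto2 and Gpx4 fell. The median of the members was 0.03, with 27 of 44 above 0, against 0.01 for all probe sets, of which 52.6% lay above 0. That median was not stable. It was 0.13 in replicates 1 to 10 (33 of 44 above 0) and -0.06 in replicates 11 to 20 (15 of 44). Only 16 of 44 members had the direction of all arrays in both sets, among them the 4 called. None of Gsta1, Gstm1, Gstm2, Gstm6 and Gstm7, which rose in corn oil rats, was called in DBCP rats over all arrays. Their differences were 0.24 ± 0.14, 0.16 ± 0.11, 0.11 ± 0.14, 0.27 ± 0.14 and 0.14 ± 0.13. The interaction given above is the test of that contrast, and it did not pass for any of them.

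Gstm5 had the largest fall. It ranged from 10.72 to 12.63 (median 11.73) on DBCP arrays and from 10.55 to 11.54 (median 10.97) after recovery. All 19 recovery arrays lay below the earlier mean, and the ranges overlapped. The fall was -0.70 ± 0.12, or 1.63-fold lower (limma, adjusted p = 7.4e-06). It was -0.57 in replicates 1 to 10, -0.84 in replicates 11 to 20 and -0.65 without the arrays of low weight, and it passed in each.

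Gsto2 ranged from 7.18 to 8.72 (median 7.40) on DBCP arrays and from 6.77 to 7.45 (median 7.15) after recovery. The groups overlapped between 7.18 and 7.45, and all 19 recovery arrays lay below the earlier mean. It fell by 0.39 ± 0.08 (limma, adjusted p = 0.000247). The highest DBCP arrays were replicates 13 and 2, at 8.72 and 8.40. Without the arrays of low weight, which include both, the difference was -0.26 and still passed (adjusted p = 0.000784).

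Gpx4 ranged from 8.06 to 10.20 (median 8.65) and then from 7.66 to 9.27 (median 8.20), so that the groups overlapped widely. It fell by 0.52 ± 0.13 (limma, adjusted p = 0.00419), with 17 of 19 recovery arrays below the earlier mean, and differed by -0.43 without the arrays of low weight (adjusted p = 0.00402). In neither set of replicate numbers alone was it called (-0.45 and -0.58, adjusted p = 0.0991 and 0.0969). Cat rose by 0.27 ± 0.07 (limma, adjusted p = 0.00578), from a range of 7.77 to 8.60 to one of 8.01 to 8.90. It too was called in neither set alone (0.25 and 0.29, adjusted p = 0.109 and 0.140).

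The other members did not pass in DBCP rats. Gsta4, Gstp1, Sod1 and Prdx6 differed by -0.02 ± 0.13, -0.01 ± 0.07, 0.15 ± 0.09 and -0.07 ± 0.15, and Gclc by 0.17 ± 0.07 (limma, adjusted p = 0.0707). Hmox1, Nqo1 and Gpx5 differed by -0.04 ± 0.07, 0.04 ± 0.06 and 0.04 ± 0.25. With replicates 1 to 10 alone 3 members were called, Sod1 as higher (0.39) and Gstm5 and Gsto2 as lower. With replicates 11 to 20 alone the calls were Gstm5 and Gsto2. Of all probe sets 10.4% and 1.73% were called in these sets.

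Sperm tail and spermatid genes fell in the same comparison. In DBCP rats 15 of 23 sperm tail genes and 16 of 25 spermatid regulators were called lower and none higher, and in corn oil rats 9 and 10. The sperm tail level moved from a range of 7.76 to 9.18 (median 8.21) to one of 7.60 to 8.29 (median 7.82) in DBCP rats, and Akap4, a kinase anchor of the flagellum, by -1.37. Odf1, of the outer dense fibres, differed by -0.02. With the sperm tail level as a covariate in limma 7 members were called (6 higher, 1 lower), against 10.1% of all probe sets called higher and 14.8% lower. Only Cat was shared with the 4 above. Gstm5 was then at -0.16, Gsto2 at -0.01 and Gpx4 at 0.16, none of which passed. Leukocyte genes rose here too (22 of 37, with 1 lower), and with their level as a covariate 9 members were called, all lower, against 9% of all probe sets called lower and 17.3% called higher. Cat was then at 0.03. In both fits the level that served as covariate differed between the groups, so that it and the time of sampling cannot be told apart.

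How the members varied among untreated rats was described over the 20 corn oil arrays without recovery. Pearson's r of each member with the leukocyte level and with the sperm tail level was tested by a two-sided permutation test with 100000 resamples, in 88 tests, with p-values adjusted over the 58428 tests of all probe sets. The 2 levels had r = 0.12 with each other. Of the members 3 passed with the sperm tail level and 1 with the leukocyte level, all positive, against 3.48% of all probe sets positively correlated with the sperm tail level and 1.3% with the leukocyte level (0.38% and 1.55% negatively). The genes that correlated with the sperm tail level were the same 3 that fell in DBCP rats. Gstm5 and Gsto2 also lay lower over time in corn oil rats, at -0.29 and -0.14, but were not called. Without the arrays of low weight both were called lower there as well. The share of all probe sets that both fell and correlated was not computed, and the cause of this overlap was not tested.

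Gpx4 had r = 0.873 with the sperm tail level (permutation p = 2e-05, adjusted p = 0.00214) and rho = 0.874 (p = 2e-05). Without the 2 arrays farthest from the median sperm tail level r was 0.810. Gstm5 had r = 0.817 (permutation p = 2e-05, adjusted p = 0.00214) and rho = 0.726 (p = 0.00041), with r = 0.727 without those 2 arrays. Gsto2 had r = 0.713 (permutation p = 0.00055, adjusted p = 0.0251) and rho = 0.657 (p = 0.00222), with r = 0.626 without them. Their correlations with the leukocyte level were 0.390, 0.150 and -0.255. None of these 3 passed.

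Prdx2, a cytosolic peroxiredoxin abundant in blood cells, was the member that passed with the leukocyte level, at r = 0.716 (permutation p = 0.00045, adjusted p = 0.0220) and rho = 0.695 (p = 0.00101), and r = 0.704 without the 2 farthest arrays. Cat had r = 0.655 and did not pass (adjusted p = 0.0515). Over all 44 members the median r was 0.24 with the leukocyte level and 0.07 with the sperm tail level, against -0.15 and -0.11 over all probe sets. The members share their arrays, so these are not independent values.

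**Figure D4:**
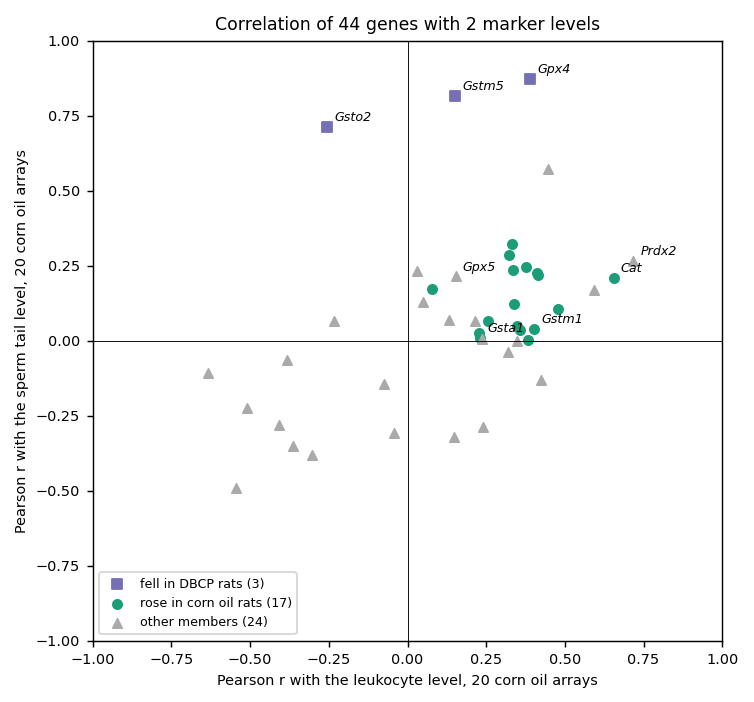
Pearson's r of each of the 44 genes with the leukocyte level (horizontal axis) and with the sperm tail level (vertical axis) over the 20 corn oil arrays; squares mark the 3 genes that fell in DBCP rats, circles the 17 that rose in corn oil rats and triangles the other 24. Gpx4, Gstm5 and Gsto2 lie at r of 0.873, 0.817 and 0.713 with the sperm tail level, above all other members.

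The same correlations were computed in each of the other groups. With the sperm tail level, Gpx4 had r = 0.873 over the 20 DBCP arrays, 0.733 over the 19 corn oil recovery arrays and 0.943 over the 19 DBCP recovery arrays. The values for Gstm5 were 0.780, 0.832 and 0.885. Gsto2 had 0.967 and 0.726 in the first 2 of these groups and passed, but 0.413 in the DBCP recovery group (permutation test, adjusted p = 0.168) and did not. Without the 2 arrays farthest from the median sperm tail level, r over the DBCP arrays was 0.666 for Gpx4, 0.645 for Gstm5 and 0.888 for Gsto2. Prdx2 passed with the leukocyte level in the DBCP recovery group (r = 0.722) but not in DBCP or corn oil recovery arrays (r = 0.486 and 0.582). With the leukocyte level 10 members passed in DBCP arrays, 7 in corn oil recovery arrays and 18 in DBCP recovery arrays, all positive, while 3.71%, 5.77% and 11.5% of all probe sets were positive and 1.44%, 10.5% and 14.6% negative. With the sperm tail level 3 members were positive and 1 negative in DBCP arrays, 4 and 0 in corn oil recovery arrays, and 9 and 2 in DBCP recovery arrays. The shares of all probe sets for that level were 6.78%, 5.35% and 9.47% positive and 10.8%, 4.04% and 15.2% negative.

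Promoter windows of 250 bases before the transcription start were read for the 36 of 44 members that had one in the RefSeq table (assembly GRCr8, from Brown Norway rats, not the Fischer 344 strain used here). The core of the antioxidant response element, TGACNNNGC, was searched on both strands. A gene was counted when the window of any of its starts held the motif. It was present in 9 of the 36 (25%), against 11% of 27457 genes: Gclm, Gpx2, Gsta3, Gstm5, Gstm7, Gstp1, Prdx1, Sod2 and Txnrd1. Of the 14 with a window that rose in corn oil rats 2 held it, and of the 3 that fell in DBCP rats 1 held it. The GC box GGGCGG, which can share bases with the end of that core, was present in 25 of 36 (69.4%), against 33.5% of all genes. A match describes these letters only, and some cores, such as tgactcagc in Gstp1, also hold the shorter site of the AP-1 family.

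Windows of the 3 genes that fell in DBCP rats are printed because those genes moved together, and those of Gstm7 and Gstp1 because they rose in corn oil rats and hold the core. Each runs 5′ to 3′ on the strand of its gene up to the base before the start, and capitals mark TGACNNNGC on either strand. Gstm5 (chr2:198219519-198219768, plus strand) held 2 cores, the first 113 bases before the start. Gsto2 (chr1:256673126-256673375, plus strand) and Gpx4 (chr7:10303630-10303879, minus strand) held none. Gsto2 has 2 starts and Gpx4 has 3, and the window of the most upstream start is printed. Gsto2 was counted with the GC box through its other start, as the printed window lacks GGGCGG on either strand. Gstm7 (chr2:198260320-198260569, minus strand) held 1 core 14 bases before the start, and Gstp1 (chr1:210769706-210769955, minus strand) 1 core 61 bases before it.
Gstm5: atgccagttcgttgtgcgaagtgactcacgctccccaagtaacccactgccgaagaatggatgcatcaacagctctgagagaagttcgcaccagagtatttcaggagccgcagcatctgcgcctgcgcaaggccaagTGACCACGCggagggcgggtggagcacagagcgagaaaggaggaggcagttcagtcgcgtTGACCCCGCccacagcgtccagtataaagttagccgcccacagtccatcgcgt
Gsto2: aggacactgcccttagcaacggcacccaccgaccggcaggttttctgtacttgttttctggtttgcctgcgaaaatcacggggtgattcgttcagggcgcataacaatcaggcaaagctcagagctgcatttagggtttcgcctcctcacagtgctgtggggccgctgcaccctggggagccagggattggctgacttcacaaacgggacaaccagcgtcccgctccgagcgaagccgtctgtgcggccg
Gpx4: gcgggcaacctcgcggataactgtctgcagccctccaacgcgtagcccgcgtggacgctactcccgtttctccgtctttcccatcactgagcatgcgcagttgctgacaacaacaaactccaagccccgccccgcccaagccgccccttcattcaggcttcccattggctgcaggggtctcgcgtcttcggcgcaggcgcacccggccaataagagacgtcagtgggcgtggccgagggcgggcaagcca
Gstm7: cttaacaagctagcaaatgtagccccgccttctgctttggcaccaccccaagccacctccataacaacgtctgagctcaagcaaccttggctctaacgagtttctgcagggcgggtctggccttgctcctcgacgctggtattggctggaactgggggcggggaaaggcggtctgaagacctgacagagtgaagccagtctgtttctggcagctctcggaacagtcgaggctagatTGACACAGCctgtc
Gstp1: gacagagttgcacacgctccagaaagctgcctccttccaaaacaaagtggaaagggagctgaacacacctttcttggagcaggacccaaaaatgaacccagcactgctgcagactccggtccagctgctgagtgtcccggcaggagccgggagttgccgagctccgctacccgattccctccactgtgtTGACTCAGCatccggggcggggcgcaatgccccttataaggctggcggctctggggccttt

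Other genes of the same pathways, 113 on the array in 5 lists, were counted in the same fit. None was called in either comparison of DBCP with corn oil. In corn oil rats over time 35 rose and 8 fell, against the 11.5% and 12.8% of all probe sets given above, and in DBCP rats 7 rose and 10 fell, against 7.28% and 6.19%.

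Among 27 genes of glutathione supply and breakdown, 9 rose and 2 fell in corn oil rats. Those of smallest p were Slc1a1, a transporter of glutamate and cysteine (0.28 ± 0.05, limma, adjusted p = 3.47e-05), and Mat2a, which makes S-adenosylmethionine (0.41 ± 0.08, adjusted p = 0.000244). Both also rose in DBCP rats, by 0.21 ± 0.05 and 0.39 ± 0.08, where 3 rose and 2 fell. The probe set used for Mat2a may not lie at that gene, as described at the end, and its second probe set is not reported here. Of 47 other antioxidant and detoxifying genes, 16 rose and 1 fell in corn oil rats, led by Selenop, the selenium carrier (0.86 ± 0.13, adjusted p = 2.9e-06), and Nqo2, a quinone reductase (0.50 ± 0.08, adjusted p = 8.51e-06). In DBCP rats 4 of them rose and 2 fell, with Hmox2, the constitutive heme oxygenase, at -0.49 ± 0.10 (adjusted p = 0.000158) and Nqo2 at 0.39 ± 0.08.

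Of 21 thioredoxins, glutaredoxins and related genes, 7 rose and 3 fell in corn oil rats, with Msrb1, a methionine sulfoxide reductase, at 0.59 ± 0.11 and Txnip, which binds thioredoxin, at 0.47 ± 0.10. In DBCP rats 5 fell and 0 rose. The 2 of smallest p were Txndc8 (-0.69 ± 0.13, limma, adjusted p = 9e-05), with all 19 recovery arrays below the earlier mean, and Txndc2 (-0.52 ± 0.10, adjusted p = 0.000128), which are thioredoxins of spermatids. Of 11 genes of the Nrf2 pathway, 2 rose and 2 fell in corn oil rats, and 0 rose and 1 fell in DBCP rats. Nfe2l2, which encodes Nrf2 itself, rose in corn oil rats (0.38 ± 0.11, limma, adjusted p = 0.00656) and missed the threshold in DBCP rats (0.29 ± 0.11, adjusted p = 0.0559). The repressor Bach2 fell in corn oil rats (-0.16 ± 0.05), and Cul3, part of the ligase that degrades Nrf2, fell in DBCP rats (-0.51 ± 0.15, adjusted p = 0.0122). Of 7 genes of NADPH supply, Idh2 rose in corn oil rats (0.23 ± 0.08) and none was called in DBCP rats. The leukocyte and sperm tail values given above accompany these counts as well, and their part in them was not tested.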

How the data were processed

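The authors deposited log2 values for 29214 probe sets on 78 arrays, with 0 missing values. The submitters' processing notes name limma, with no version. Background correction, normalization and summarisation: none of these is given in the sources used here, and they could move small log2 differences. No further scaling was applied. Probe sets were named from the platform annotation where it gave 1 symbol (15310 probe sets, 14506 genes), and all 44 genes matched the reference gene table.

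All probe sets and all 78 arrays entered a model of group means in limma (version 3.58.1, run in R 4.3.3 with lmFit and eBayes), with 5 contrasts and Benjamini-Hochberg adjustment over all probe sets at 0.05. Precision is limited by the number of arrays, and the 44 genes had a median SE of 0.08 at the end of exposure. Counts of arrays beside a difference are those beyond the mean of the group compared with. P-values measure the spread between arrays labelled biological replicates. Marker levels are means of the listed genes per array. Correlations used numpy 2.4.6 and 100000 resamples. They were planned with adjustment over the 88 tests of these genes, but were adjusted over the 58428 tests of all probe sets, because the genes and lists here were chosen with earlier results of these data known. Both procedures were also run on simulated data. The simulated noise was independent between probe sets, whereas real arrays vary together, so these runs cannot vouch for the calls here.

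Genes named with values were those past the threshold (at most 8 rises and 8 falls per contrast), the 5 of smallest p where none passed, a fixed set of 11 (Gpx4, Gpx5, Gstm1, Gsta4, Gstp1, Gclc, Hmox1, Nqo1, Cat, Sod1 and Prdx6), genes whose probe sets disagree in call, and for other lists the 2 of smallest p over time. Further names were chosen after their values were seen. Alternatives were other scalings, filters, priors, array weights, blocks, sets of replicate numbers, marker levels as covariates, an adjusted p of 0.10 and leaving out each array.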

Additional observations from a re-analysis of the deposited data

How the results depend on the processing

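The counts of 0 members called in both comparisons of DBCP with corn oil and in the interaction held under every alternative and with each of the 78 arrays left out, apart from the leukocyte covariate at the end of exposure, which gave 17 (11.8% of all probe sets). In corn oil rats over time the count of 20 became 1 with replicates 11 to 20 alone and 1 with the leukocyte covariate (1.32% and 2.85% of all probe sets, against 24.3%), and was 16 to 23 with 1 array left out. In DBCP rats the count of 4 became 2 with replicates 11 to 20 alone, 9 with the leukocyte covariate and 7 with the sperm tail covariate (1.73%, 26.3% and 24.9% of all probe sets, against 13.5%), and was 4 to 6 with 1 array left out. Turned directions were listed only for members called in the main fit or under the alternative. With the leukocyte covariate they were Gstp1 (-0.0087) and Prdx6 (-0.048) in corn oil rats, and Gsto1 (-0.19) and Prdx2 (-0.23) in DBCP rats. With the sperm tail covariate they were Gpx4 (0.26 in corn oil rats, 0.16 in DBCP rats) and Gpx8 (-0.31 in DBCP rats). Members called in neither fit also turned. Of all 44, 39 had the direction of all arrays in both sets of replicate numbers over time in corn oil rats, and 16 in DBCP rats. At the end of exposure 29 did, after recovery 32, and in the interaction 32. Of the 88 tests of a member with a marker level, 4 passed, and 7 did after centring on the array median, 14 in DBCP arrays, 11 in corn oil recovery arrays and 29 in DBCP recovery arrays. A member can pass with both levels. After centring, 3.82% of all probe sets were positive with the leukocyte level and 4.71% with the sperm tail level, and the shares in the other groups are given above. The cause of these shifts was not tested. No corn oil array had a low weight, so that setting gave no other value there. Same-numbered arrays hardly deviated together in the median (r 0.009 over 114 pairs, against -0.002 for pairs of other numbers). Of the 114 pairs 41 had r over 0.1, and 7 of 78 arrays correlated best with their own number. The labels state no pairing, and these values cannot exclude one. With the replicate block, 20 members were called in corn oil rats and 5 in DBCP rats over time, and 0 in the other comparisons. The deposited log2 values hold no background signal or depth, so detection could not be judged.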

Other observations

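The probe set used for Prdx1, a cytosolic peroxiredoxin, may not lie at that gene. Probe sets on this array are numbered largely in genome order. All 20 of the nearest numbered probe sets with a known gene were on chromosome 2, whereas Prdx1 is on chromosome 5. A second probe set of Prdx1 had 19 of 20 such neighbours on chromosome 5. The values of both were close: the means on corn oil arrays were 7.94 and 7.93, and the differences at the end of exposure 0.21 and 0.20. The second probe set of Gsta4, which disagreed with the first in its call, had 19 of 20 neighbours on chromosome 6, whereas Gsta4 and the neighbours of its first probe set (19 of 20) are on chromosome 8. Among the other genes of these pathways, the brighter of the 2 Mat2a probe sets was numbered between those of Glrx2 and Cxcr4. Those genes are on chromosome 13, whereas Mat2a is on chromosome 4. Which transcripts these probe sets of Prdx1, Gsta4 and Mat2a measured was not tested.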
